A study of Mus musculus with 51 samples.

Results

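Collagens are the chains of the extracellular matrix, and their RNA was followed here through subcutaneous tumors and cultured tumor cells in which the ubiquitin-activating enzyme UBA1 had been depleted, overexpressed or inhibited. Members were the genes whose symbol has the form of a collagen alpha chain, Col followed by the type and the chain. Of 40077 genes in the deposited tables, 44 had such a symbol, and 41 of them were kept because they reached 10 counts in at least 2 of 51 libraries. The 3 left out were Col19a1, Col25a1 and Col26a1, which reached at most 7, 2 and 4 counts in any library. The kept genes were then divided by their level in cultured cells, as TPM (transcript abundance scaled for gene length and library total).

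The bulk RNA-seq covered 35 tumors and 16 culture libraries from 6 experiments. B16-BL6, an invasive variant of the B16 mouse melanoma, gave 3 control tumors and 4 tumors labelled sgUba1, for a guide RNA against Uba1, grown in female C57BL/6 mice. Myc-CaP, a prostate cancer line from a mouse with a Myc transgene, was grown in male FVB mice and gave 3 control (sgNC) and 7 sgUba1 tumors, 3 empty vector (EV) and 4 Uba1 overexpression (OE) tumors, and 6 vehicle and 5 TAK-243 tumors. TAK-243 is an inhibitor of UBA1, and it was given to mice by vein. All mice were young and immunocompetent. Cultured Myc-CaP cells carried either a control guide or sgUba1, or were wild-type and either untreated or treated with TAK-243 at 50 nM, each without or with IFN-γ, in 2 libraries a group. The sgUba1 lines were grown from single sorted cells, so that a guide cannot be told apart from the cell that founded the line, whereas OE came from a lentiviral CMV vector and drug selection. Tumors were started in both flanks, so some may share a mouse, and the p-values measure the spread between these samples.

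Fibrillar collagens (types I, II, III, V, XI, XXIV and XXVII) build the fibers of connective tissue, and in tumors types I and III are the bulk of what fibroblasts lay down. Type IV chains form the sheet of basement membranes under epithelium and around vessels, type VI forms beaded filaments, and type VII forms the anchoring fibrils that tie epithelium to the tissue below. The FACIT collagens, among them types IX, XII, XIV and XVI, sit on the surface of fibrils, while types XV and XVIII carry sugar side chains in vessel basement membranes. Chains assemble as trimers in the endoplasmic reticulum with the help of hydroxylases and of Serpinh1, the collagen chaperone HSP47, so that a chain without its partners is usually not secreted.

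The labels were checked by Uba1 itself. Uba1 stood at 146, 158 and 153 TPM in the B16-BL6 controls and at 80.7, 81.0, 81.4 and 93.0 TPM in the sgUba1 tumors. In the Myc-CaP sgUba1 tumors it was 84.4, 83.7 and 88.1 TPM in replicates 1 to 3, but 133, 126, 134 and 141 TPM in replicates 4 to 7, beside 121, 131 and 129 TPM in the controls. Uba1 RNA was thus not lowered in replicates 4 to 7, and counts of collagens are also given without them. The paper showed depletion as protein and used independent guides, and the labels do not name the guide. Whether the protein was depleted in replicates 4 to 7 cannot be told from the RNA. The OE tumors held 262, 240, 275 and 283 TPM against 121, 108 and 116 TPM with empty vector. Control cells held 196 and 200 TPM and sgUba1 cells 112 and 109 TPM. Defining melanocyte markers summed to 9785 to 11863 TPM in the B16-BL6 tumors and to at most 4.14 TPM in the Myc-CaP tumors, whereas prostate epithelial markers summed to 201 to 706 TPM in Myc-CaP tumors, with the epithelial marker Epcam at 0 in several culture groups. Total counts per library ran from 8652097 to 38032395.

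Upstream sequences are shown for the collagens on which the comparisons below turn, taken from the RefSeq promoter table of GRCm38.p6. Col5a1 and Col7a1 are shown because both were expressed in culture and rose with TAK-243, and the interval between Col4a4 and Col4a3 because the neighbours were counted very differently in the melanoma. These genes start 71 bases apart on opposite strands of chromosome 1. The Col5a1 window is at chr2:27886175-27886424 and the Col7a1 window at chr9:108953336-108953585, both on the plus strand and ending 1 base before the gene start, and the Col4a4 to Col4a3 interval is at chr1:82586850-82586920, read on the minus strand towards Col4a4. None of the 3 windows overlaps an annotated exon. Capitals mark CCAAT and GGGCGG on either strand.
Col5a1: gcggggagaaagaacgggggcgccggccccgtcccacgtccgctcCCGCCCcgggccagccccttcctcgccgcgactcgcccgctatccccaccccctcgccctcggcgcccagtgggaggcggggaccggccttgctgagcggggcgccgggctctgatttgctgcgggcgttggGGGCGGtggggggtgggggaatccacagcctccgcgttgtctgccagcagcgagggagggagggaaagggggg
Col7a1: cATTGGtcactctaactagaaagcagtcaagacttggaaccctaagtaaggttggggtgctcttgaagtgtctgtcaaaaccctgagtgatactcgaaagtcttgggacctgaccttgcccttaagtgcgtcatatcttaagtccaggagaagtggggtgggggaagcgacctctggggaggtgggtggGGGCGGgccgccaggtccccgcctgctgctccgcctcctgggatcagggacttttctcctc
Col4a4 to Col4a3: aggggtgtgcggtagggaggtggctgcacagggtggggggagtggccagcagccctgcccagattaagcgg
GGGCGG, the core of a GC box, lay in the 250 bases upstream of 20 of the 33 members with a promoter entry (60.6%), against 32.7% of 32851 promoters of that length. CCAAT lay upstream of 11 of 33 (33.3%), near the 33.8% of all promoters. TGANTCA, an AP-1 letter pattern, was found upstream of 1 member, TGATGNAA, a C/EBP and ATF letter pattern, of 0 and ACAATG, a SOX letter pattern, of 1, where N is any base and both strands were read. The shares over all promoters were 6.75%, 3.45% and 10.7%. These matches are a description of letters and not of bound sites.

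A total of 9 collagens reached a mean of 1 TPM in the 16 culture libraries, 18 were under 1 TPM there but at 1 TPM or more over the 35 tumors, and 14 were low in both. The 9 were Col5a1 (mean 33.3 TPM), Col4a5 (10.7 TPM), Col12a1 (7.73 TPM), Col16a1 (2.56 TPM), Col7a1 (2.48 TPM), Col11a2 (2.41 TPM), Col4a3 (2.39 TPM), Col6a3 (1.82 TPM) and Col4a1, which was just inside at 1.10 TPM. Just outside were Col9a3 at 0.983 TPM and Col4a2 at 0.869 TPM. A threshold of 3 TPM left only 3 genes in the first class, Col5a1, Col4a5 and Col12a1. Col4a3 rested on few reads, with 7 to 30 counts in any culture library. Because the class was set by these levels, the division is a description. It was made in Myc-CaP cells alone, and B16-BL6 cells in culture were not analysed here.

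**Figure D1:**
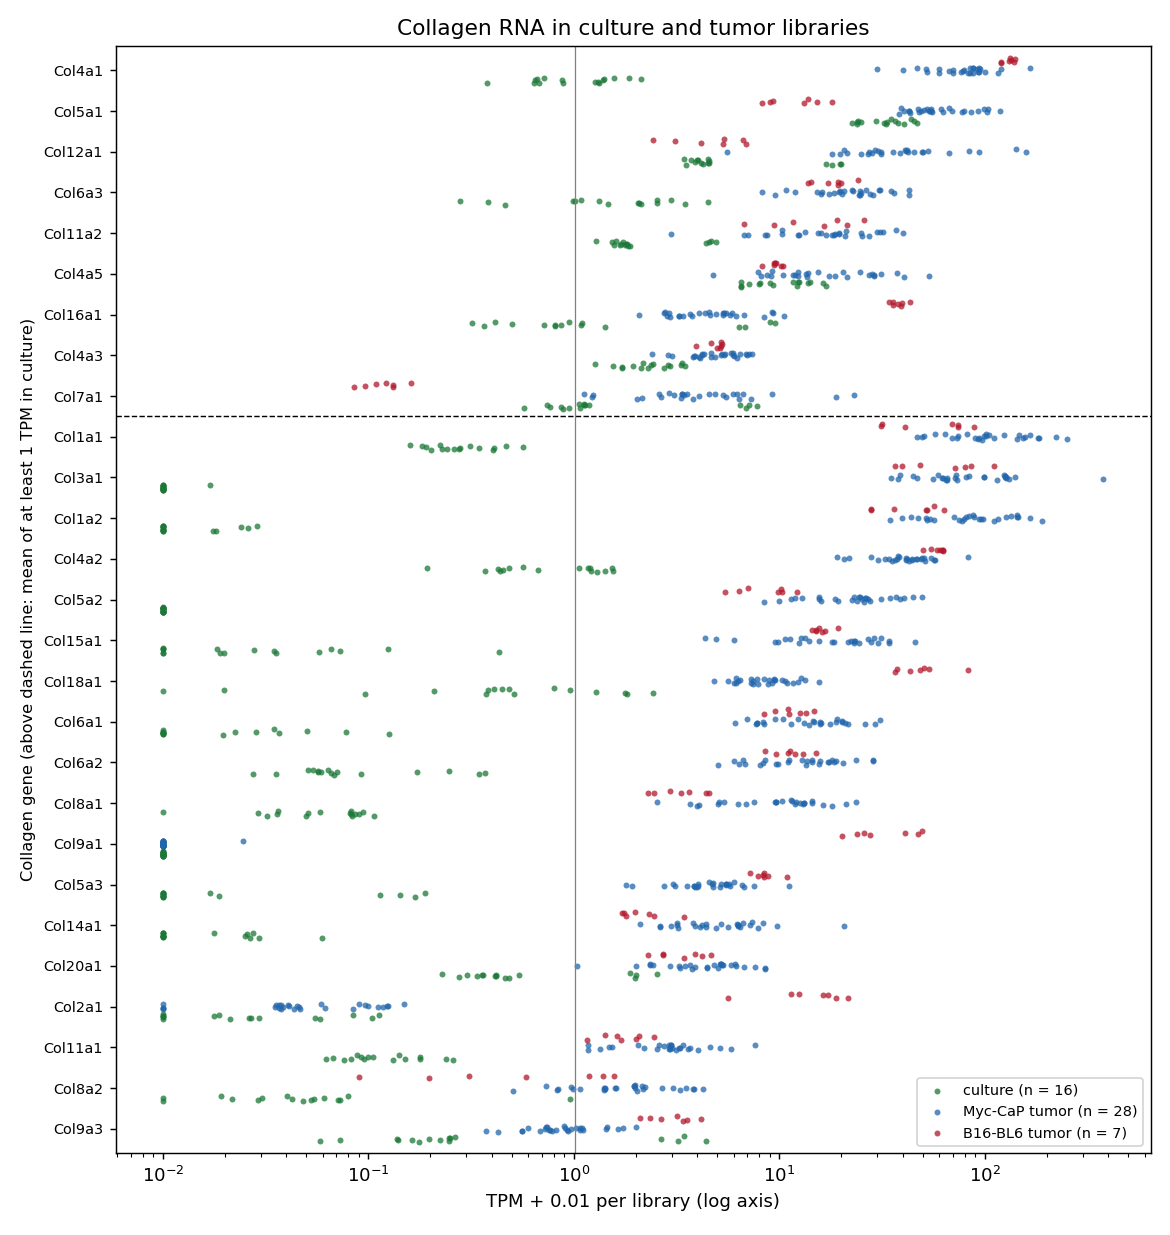
Level of the collagens of the first and second class, without those low in both, in TPM + 0.01 on a log axis, with a point per library, colored by culture, Myc-CaP tumor and B16-BL6 tumor. Genes above the dashed line had a mean of at least 1 TPM in culture. Col5a1 was at 22.6 to 46.6 TPM in culture, whereas Col1a1 stayed at 0.150 to 0.555 TPM there and reached 46.9 to 253 TPM in Myc-CaP tumors.

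Cultured Myc-CaP cells held Col5a1 without its usual partner and little of types I and III. Col5a1, the obligate chain of type V, was at 22.6 to 46.6 TPM, yet Col5a2, its partner in the common trimer, had 0 counts in all 16 culture libraries. Col3a1, the sole chain of type III, had 0 counts in 15 of 16 and 1 count in the other. Col1a2 was at 0 in 11 of 16 libraries and reached at most 0.0186 TPM, and Col1a1 lay between 0.150 and 0.555 TPM. Types I and III therefore made up 0.272% to 0.664% of the summed collagen TPM in culture, against 28.3% to 54.4% in Myc-CaP tumors and 18.7% to 34.6% in B16-BL6 tumors. A count of 0 allows up to 3 counts, or 0.0789 to 0.233 CPM (counts scaled to the library total) in these libraries, and this limit covers counting error only.

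The assembly genes were likewise split. Serpinh1 was listed at 0 in all 16 culture libraries, beside 11.9 to 52.2 TPM in Myc-CaP tumors and 345 to 444 TPM in B16-BL6 tumors. Lox, which cross-links collagen, was also listed at 0 in all 16, beside 4.70 to 28.4 TPM in Myc-CaP tumors. Mmp2, a gelatinase, was at 0 in 15 of 16. Other genes of the pathway were abundant in the same cells: the prolyl hydroxylase subunit P4ha1 at 40.4 to 70.7 TPM, the cross-linker Loxl2 at 51.7 to 94.3 TPM, the propeptide cleavage enhancer Pcolce at 136 to 332 TPM and the collagen-binding protein Sparc at 98.4 to 143 TPM. Of the 13 non-collagen fibroblast markers, Dcn, Dpt, Fap and Thy1 were at 0 in every culture group, whereas Twist2 reached 12.7 to 34.6 TPM and Pdgfra 5.15 to 18.3 TPM.

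Of the 41 collagens, 17 were higher in each of the 28 Myc-CaP tumors than in any culture library, 0 were lower throughout, and 24 overlapped. Among all 19836 genes compared, 13.1% were higher and 1.92% lower without overlap. Of the 17, Col1a2, Col3a1, Col5a2, Col6a1, Col8a1, Col14a1 and Col15a1 did not reach the count minimum in culture and were members through the tumors alone, so that these 7 had to be higher there. Culture levels also set the classes, and nothing is read from the count. In bulk tissue, fewer cells of a type and less RNA per cell cannot be told apart. The 17 held the type I chains, Col3a1, Col5a2, Col5a3, Col6a1, Col6a2, Col6a3, Col4a1, Col4a2, Col8a1, Col11a1, Col14a1, Col15a1, Col18a1, Col22a1 and Col27a1. Col4a1 lay at 0.368 to 2.11 TPM in culture and at 30.0 to 167 TPM in the tumors, although its class was culture-expressed. Col5a1, Col4a5, Col12a1 and Col7a1 overlapped between culture and tumor. Summed over the 41 genes, collagen reached 52.3 to 95.4 TPM in the culture groups and 356 to 1510 TPM in Myc-CaP tumors. The cells also differed from the tumors in experiment and handling, whose part in these levels was not tested.

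In the 7 B16-BL6 tumors, 7 collagens were above all 28 Myc-CaP tumors, against 16.2% of all genes, and 2 were below them, against 14.1%. Of the 7, Col9a1, Col9a2 and Col2a1 reached the count minimum through the B16-BL6 tumors alone, so that they had to be higher there, and the count of 7 is a description. Col9a1, a chain of the FACIT type IX that coats cartilage fibrils, was at 20.2 to 49.8 TPM in B16-BL6 and at most 0.0146 TPM in Myc-CaP tumors. Col2a1, the fibril chain that type IX coats in cartilage, was at 5.64 to 21.5 TPM against at most 0.139 TPM. Col9a2 was at 1.81 to 2.53 TPM against at most 0.148 TPM, and Col9a3 at 2.08 to 4.18 TPM against 0.365 to 1.99 TPM. The lines thus differed in all 3 type IX chains. Col4a4 was at 3.58 to 5.09 TPM against at most 0.113 TPM, Col16a1 at 34.3 to 43.5 TPM against 2.06 to 10.6 TPM, and Col18a1 at 36.7 to 83.4 TPM against 4.80 to 15.6 TPM.

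Col4a4 and Col4a3 are partners in a type IV trimer, and they share the short interval printed above. Col4a4 had 678 to 1211 counts in the B16-BL6 tumors, whereas Col4a3 had 41 to 59. In Myc-CaP tumors Col4a4 had at most 20 counts and Col4a3 8 to 67. On the TPM scale Col4a3 was nevertheless alike in B16-BL6 (3.93 to 5.29 TPM) and Myc-CaP tumors (2.40 to 7.35 TPM), so its TPM stand on few reads. The 2 collagens lower in the melanoma were Col5a1, at 8.24 to 18.1 TPM against 38.4 to 119 TPM, and Col7a1, at 0.0756 to 0.152 TPM against 1.11 to 23.2 TPM. The lines differ also in mouse strain, sex and experiment, which cannot be told apart from the line.

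**Figure D2:**
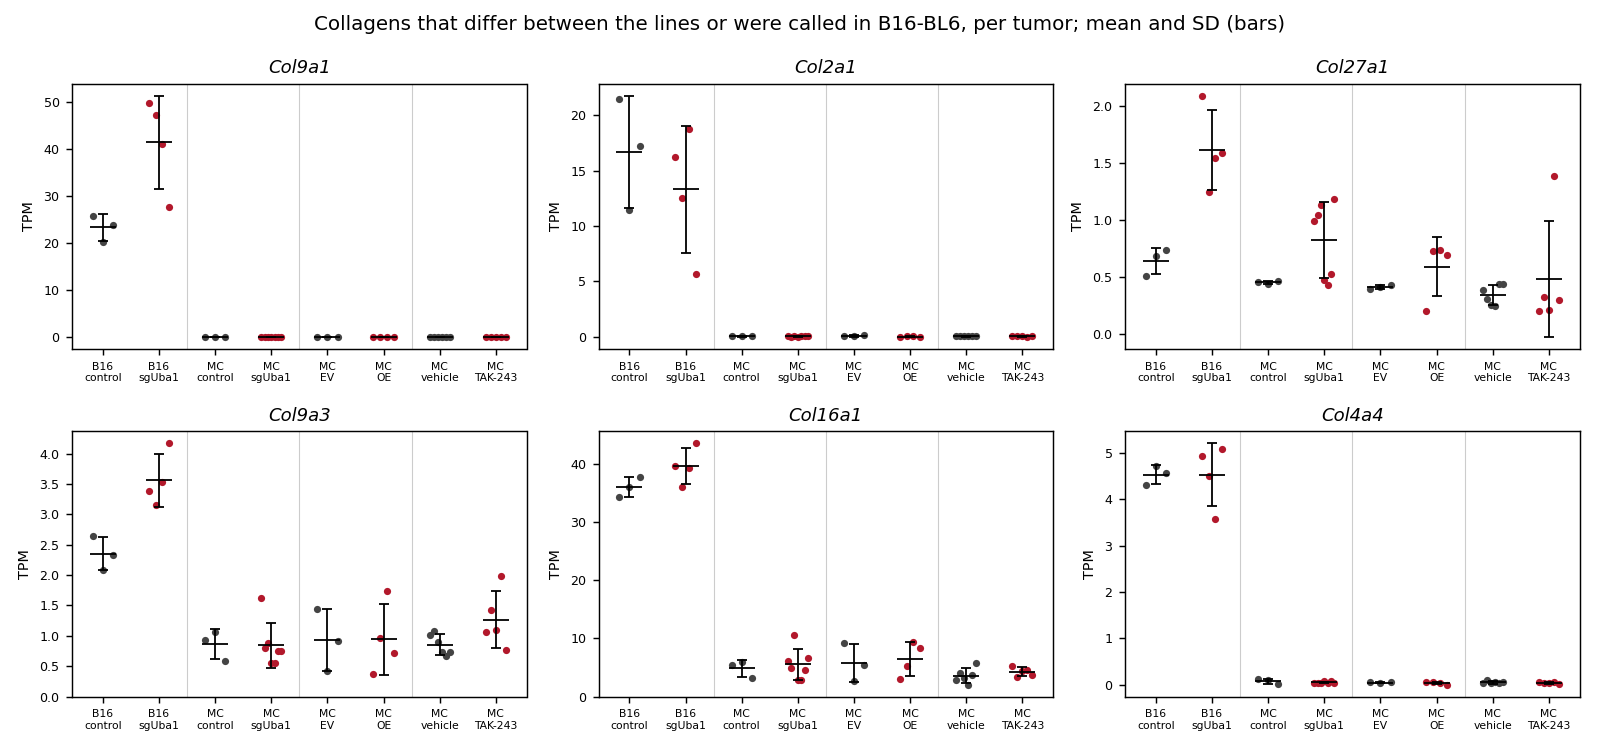
TPM per tumor of 6 collagens in the 8 tumor groups, with a point per tumor, the mean and SD as bars, B16 for B16-BL6 and MC for Myc-CaP. Col9a1 and Col2a1 are near 0 in every Myc-CaP group. The 4 B16-BL6 sgUba1 tumors lie above the 3 controls for Col27a1, Col9a1 and Col9a3, of which only Col27a1 was called.

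The first comparison asked what depletion of Uba1 changed in melanoma. In B16-BL6 tumors, 37 collagens were tested by edgeR's quasi-likelihood test, and 1 passed an adjusted p of 0.05, against 0.724% of the 17539 genes tested, 0.268% higher and 0.456% lower. Col27a1, a fibrillar chain found in cartilage and skin, was at 0.514, 0.683 and 0.734 TPM in the controls and at 2.09, 1.24, 1.55 and 1.58 TPM in the sgUba1 tumors, so that the groups did not overlap. It rose by 1.26 ± 0.18 on the log2 scale (SE, edgeR adjusted p = 0.0136), from 3.46 ± 0.592 to 8.34 ± 1.59 CPM (SD, n = 3 and 4). Without control replicate 1 the change was 1.13 (edgeR adjusted p = 0.0728), and without control replicate 2 it was 1.34 (edgeR adjusted p = 0.0629), so that either control decided the call. The adjacent melanoma collagens did not pass. Col9a1 was at 25.7, 20.2 and 23.8 TPM in controls and at 49.8, 47.1, 41.1 and 27.6 TPM in sgUba1 tumors, a difference of 0.78 (edgeR adjusted p = 0.0909) that was called without sgUba1 replicate 4 (0.93, edgeR adjusted p = 0.000525). Col9a3 differed by 0.54 (edgeR adjusted p = 0.108). Both were above every control in 4 of 4 sgUba1 tumors. The share of all genes that were so is not given here, and nothing is read from it. Col18a1 differed by 0.51 and Col11a2 by 0.49, with overlap.

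The main stromal chains of the melanoma overlapped between the groups. Col1a1 was at 41.1, 31.6 and 88.4 TPM in controls and 69.4, 73.7, 73.9 and 31.1 TPM in sgUba1 tumors, a difference of 0.17 ± 0.36 (SE, edgeR adjusted p = 0.845). Col1a2 and Col3a1 differed by 0.12 each, Col5a1 by 0.14, Col5a2 by 0.18 and Col12a1 by 0.38. Col4a1 differed by -0.05, Col4a2 by -0.15, Col6a1 by -0.09, Col6a2 by -0.13, Col6a3 by -0.03 and Col15a1 by -0.14. The largest decreases among genes of at least 1 on the log2 CPM scale were those of Col2a1 (-0.40), Col4a5 (-0.17) and Col5a3 (-0.16). The median over the 37 collagens was 0.07, beside 0.01 over all genes tested. In the lists of genes that serve collagen, 0 of 22 folding and modification genes, 0 of 11 degradation genes and 0 of 11 receptors passed the test. Loxl4, a cross-linker, rose by 0.99, the growth factor Tgfb1 rose by 0.75 and Sparcl1, a matrix protein, fell by 0.51. Skeletal muscle markers summed to 13.8, 13.1 and 81.2 TPM in controls and 24.5, 103, 23.2 and 292 TPM in sgUba1 tumors, and macrophage markers to 115, 91.9 and 162 TPM in controls and 189, 186, 201 and 150 TPM in sgUba1 tumors, with 0 of 9 muscle and 0 of 8 macrophage markers passing by edgeR. Adipocyte markers summed to 43.9 to 59.8 TPM in controls and 15.6 to 72.9 TPM in sgUba1 tumors. The part of these tissues in the differences was not tested.

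In Myc-CaP, the tumors labelled sgUba1 had lower Col4a5 than the controls. Col4a5, a type IV chain of epithelial basement membranes that cultured Myc-CaP cells also express, was at 13.6, 53.8 and 24.6 TPM in the controls and ranged from 4.74 to 12.3 TPM (median 9.07 TPM) in the 7 sgUba1 tumors. It fell by 1.73 ± 0.33 on the log2 scale (SE, edgeR adjusted p = 0.0297) and was the 1 collagen called of 31 tested, against 3.04% of 16202 genes, 1.15% higher and 1.89% lower. The 7 sgUba1 tumors lay below all 3 controls. The size depended on control replicate 2, without which the difference was -1.09 (edgeR adjusted p = 0.135). EdgeR also no longer called it without control replicate 3 (-1.85, edgeR adjusted p = 0.0749) or without sgUba1 replicate 1, 4, 5, 6 or 7 (-1.75 to -1.63, edgeR adjusted p = 0.0502 to 0.0666). Limma-voom called 0 collagens and DESeq2 10. With replicates 4 to 7 left out, edgeR called 0 of 30 collagens, with 21 at an unadjusted p under 0.05 (against 18.9% of genes), and Col4a5 differed by -1.54 (adjusted p = 0.165). In that comparison 1 of 15679 genes was called at all.

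Many collagens of connective tissue were higher in the Myc-CaP sgUba1 tumors without passing the test. Col6a1 was at 13.2, 16 and 10.5 TPM in controls and 15.9 to 31.0 TPM (median 20.8 TPM) in sgUba1 tumors, a difference of 0.81 (edgeR adjusted p = 0.052). Col5a1 was at 54.8, 69.0 and 38.4 TPM in controls and 62.5 to 119 TPM (median 99.7 TPM) in sgUba1 tumors, also a difference of 0.81 (edgeR adjusted p = 0.0567). Without sgUba1 replicate 2 both were called, at 0.85 for Col6a1 (edgeR adjusted p = 0.0463) and 0.86 for Col5a1 (edgeR adjusted p = 0.039). Col6a2 differed by 0.81, Col5a2 by 0.62, Col15a1 by 0.74, Col3a1 by 0.83, Col1a1 by 0.49, Col1a2 by 0.53 and Col6a3 by 0.31, whereas Col4a1 differed by -0.18, Col4a2 by -0.15 and Col18a1 by -0.01. The largest increases at 1 or more on the log2 CPM scale were those of the low type VI chains Col6a6 (2.76) and Col6a5 (2.37) and of Col12a1 (1.04). Col6a5 was at 1.94, 0.842 and 4.91 TPM in sgUba1 replicates 1 to 3 and at 0.102 to 0.508 TPM in replicates 4 to 7. Its controls were at 0.175 to 0.299 TPM. The largest decreases were those of Col7a1 (-2.17, edgeR adjusted p = 0.052), Col4a5 and Col4a1. Col7a1 was at 5.95, 23.2 and 7.31 TPM in controls and 1.11 to 6.34 TPM (median 2.14 TPM) in sgUba1 tumors, and it was called without control replicate 1 or sgUba1 replicate 3 (-2.49 in each, edgeR adjusted p = 0.0375 and 0.0296). A total of 14 of 31 collagens had an unadjusted p under 0.05, against 23.7% of all genes tested. The median was 0.63 over the 16 tested genes of the class low in culture and -0.07 over the 9 culture-expressed genes, beside 0.00 over all genes.

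Col12a1, a FACIT collagen on type I fibrils, was high in the 3 sgUba1 tumors of low Uba1 RNA and not in the other 4. It was at 42.1, 42.6 and 18 TPM in the controls, at 160, 93.8 and 143 TPM in sgUba1 replicates 1 to 3 and at 31.4, 27.4, 21.4 and 38.9 TPM in replicates 4 to 7. Against replicates 1 to 3 alone the difference was 1.85 (edgeR adjusted p = 0.118). Col11a2, a type XI chain, was at 40.2, 25.2 and 36.9 TPM in replicates 1 to 3 and 6.73 to 8.69 TPM in replicates 4 to 7. Its controls were at 25.1, 13.3 and 18.4 TPM, so that, unlike for Col12a1, replicates 4 to 7 lay below every control. Scaled as CPM, replicate 2 (85.1) was below control replicate 1 (94.0). These tumors were split by the RNA of the targeted gene, and no test between the parts was made.

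Other cell types moved in these tumors as well. Of 8 macrophage markers, 4 rose (Adgre1 by 1.15, Ptprc by 1.06, Cd68 by 0.83 and C1qa by 0.82), and the markers summed to 198 to 343 TPM in controls and 330 to 556 TPM in sgUba1 tumors. Of 13 fibroblast markers, 0 passed by edgeR, with a median of 0.52, and they summed to 69.5 to 121 TPM in controls and 61.6 to 236 TPM in sgUba1 tumors. The same list summed to 32.9 to 49.9 TPM in cultured Myc-CaP cells, so the tumor sum is not a level of fibroblasts alone. The part of these cell types in the collagen levels was not tested. In the collagen lists, the uptake receptor Mrc2 rose by 1.07 and Tgfbi by 0.84, and Pcolce and Loxl4 fell by 1.45 and 1.44. The other collagen folding (0 of 22) and receptor (0 of 11) genes did not pass.

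**Figure D3:**
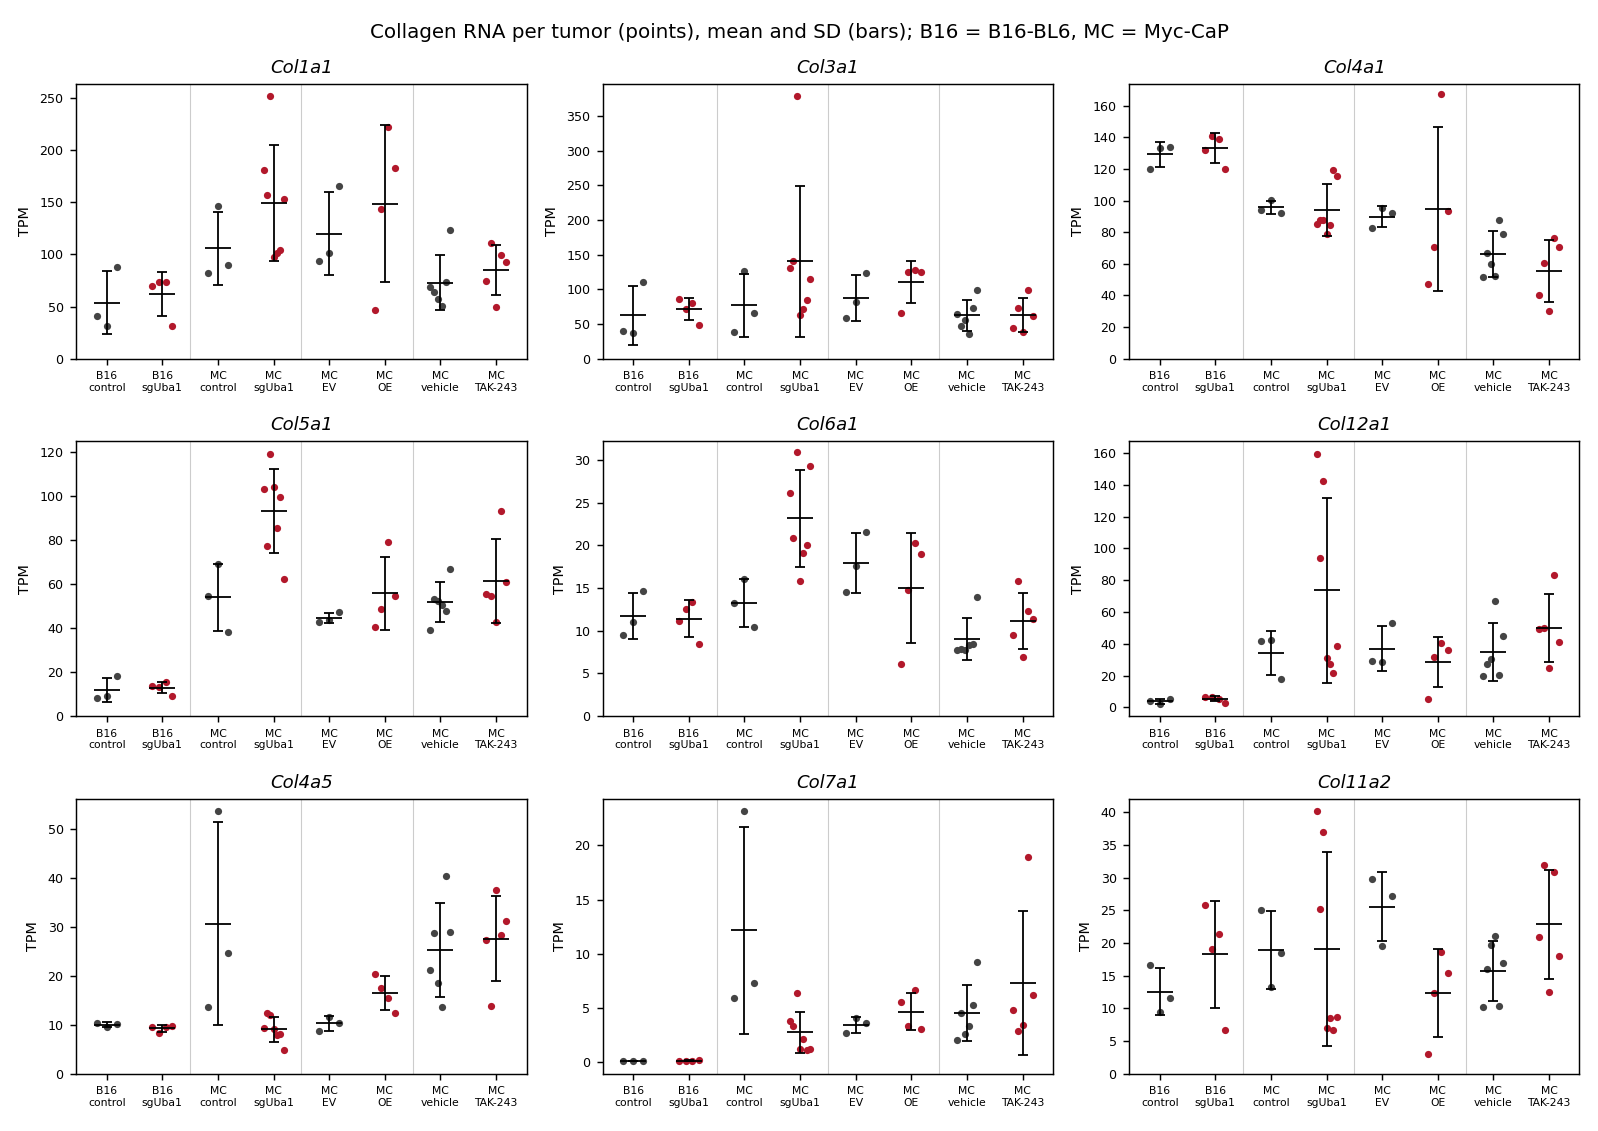
TPM per tumor of main collagen chains in the 8 tumor groups, with a point per tumor and the mean and SD as bars. Col12a1 of the Myc-CaP sgUba1 tumors lies in 2 groups, at 93.8 to 160 TPM and at 21.4 to 38.9 TPM, and Col4a5 of the 7 sgUba1 tumors lies below the 3 controls.

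Whether the effect of sgUba1 differed between the lines was tested as an interaction over all 17 tumors. EdgeR called 0 of 37 collagens, against 1.52% of 17513 genes (0.794% higher and 0.725% lower), with 5 at an unadjusted p under 0.05 (against 18.3% of genes). DESeq2 called 3 (Col4a5, Col6a1 and Col7a1) and limma-voom 0. The difference for Col4a5 was -1.54 (edgeR adjusted p = 0.074), and for Col27a1, the gene called in the melanoma, it was -0.41 (edgeR adjusted p = 0.627).

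Overexpression of Uba1 changed no collagen by edgeR. In OE against empty vector tumors 0 of 29 collagens passed, against 0.0269% of 14853 genes (0.0202% higher and 0.00673% lower), with 3 at an unadjusted p under 0.05 (against 18.2% of genes). Limma-voom called 0 and DESeq2 2, Col4a5 and Col6a5. Col4a5 was at 8.71, 11.7 and 10.4 TPM with empty vector and 20.4, 17.6, 15.5 and 12.3 TPM in OE tumors, a difference of 0.74 (edgeR adjusted p = 0.139). Col6a5 was at 0.868, 0.261 and 0.803 TPM with empty vector and 0, 0.0365, 0.0921 and 0.206 TPM in OE tumors. The other largest increases were 0.57 (Col27a1) and 0.52 (Col7a1), and the largest decreases were -1.03 (Col11a2), -0.69 (Col20a1) and -0.66 (Col22a1), with 0 of these called. Col1a1 was at 93.7, 101 and 166 TPM with empty vector and 46.9, 144, 222 and 183 TPM in OE tumors, a difference of 0.36, and Col3a1 differed by 0.49. Col1a2, Col4a1, Col4a2, Col5a1 and Col18a1 differed by 0.14 to 0.32, and Col5a2, Col6a1, Col6a2, Col6a3, Col12a1 and Col15a1 by -0.38 to -0.10. OE replicate 1 was the lowest of the OE tumors for Col1a1, Col3a1, Col5a2, Col6a1, Col12a1, Col15a1 and Col18a1, and had the highest summed muscle markers, 479 TPM, beside 164, 14.4 and 12.7 TPM in the other OE tumors. The part of muscle was not tested. Over all 6 collagen lists, 0 genes passed.

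TAK-243 given to mice changed no collagen called by edgeR either, with 0 of 31 tested, against 0.145% of 17299 genes, 0.0867% higher and 0.0578% lower. There were 4 with an unadjusted p under 0.05 (against 15% of genes), and DESeq2 and limma-voom called 0 each. Col1a1 lay between 50.6 and 124 TPM (median 66.5 TPM) with vehicle and between 49.4 and 111 TPM with TAK-243, a difference of 0.15 ± 0.23 (SE, edgeR adjusted p = 0.784). Col11a1 differed by 0.66, Col7a1 by 0.59 and Col11a2 by 0.45. Col5a3 differed by -0.56, Col18a1 by -0.50 (edgeR adjusted p = 0.228) and Col4a1 by -0.34. Col4a5 lay between 13.5 and 40.4 TPM with vehicle and 13.7 and 37.5 TPM with TAK-243, a difference of 0.08. Col3a1, Col4a2 and Col6a3 differed by -0.06, -0.28 and -0.27, and Col1a2, Col5a1, Col5a2, Col6a1, Col6a2, Col12a1 and Col15a1 by 0.01 to 0.42. In the collagen lists only Mmp8, the neutrophil collagenase, passed, and it rose by 3.27.

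Ratios of collagen chains ranged over different widths. The TPM ratio of Col1a1 to Col1a2 lay between 1.06 and 1.43 (median 1.24) over the 35 tumors, that of Col4a1 to Col4a2 between 1.56 and 2.40 (median 1.95), and that of Col6a1 to Col6a2 between 0.942 and 1.38 (median 1.07). Col5a1 to Col5a2 ranged more widely, from 1.27 to 4.83 (median 2.17), as did Col3a1 to Col1a1, chains of different types, from 0.472 to 1.56 (median 0.804). In 20 exact permutation tests of 5 ratios in 4 experiments 0 passed after adjustment, but a single ratio could hardly pass, since the smallest p that the groups allow is 0.0286 for 3 against 4 tumors, 0.00833 for 3 against 7 and 0.00216 for 6 against 5. These tests therefore say nothing of whether the ratios were stable. The smallest p was that of Col4a1 to Col4a2 in B16-BL6 tumors, higher by 0.14 on the log2 scale (two-sided exact permutation p = 0.0286, adjusted p = 0.571). Col1a1 to Col1a2 in OE tumors was higher by 0.13 (exact permutation p = 0.0571, adjusted p = 0.571).

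In cultured cells, where no stroma is present, Col12a1 was higher in the sgUba1 line than in the control line. It was at 3.70 and 3.89 TPM in control cells and at 19.8 and 20.1 TPM in sgUba1 cells, a 5.15-fold increase (log2 2.37 ± 0.05 SE, edgeR adjusted p = 1.67e-10). Col4a5 fell from 12.5 and 12.3 TPM to 8.97 and 9.30 TPM, by 0.47 ± 0.05 on the log2 scale (SE, edgeR adjusted p = 0.000101). Col9a3 fell by 1.98 (edgeR adjusted p = 0.0159) at 12 and 11 counts against 4 and 3, and this call was lost without control replicate 1 (-1.83), sgUba1 replicate 1 (-2.22) or sgUba1 replicate 2 (-1.79). These were the 3 collagens called of 15 tested, against 29.7% of 15530 genes, 16.2% higher and 13.6% lower. The other culture-expressed chains differed by -0.11 (Col5a1), -0.27 (Col7a1), 0.08 (Col11a2), -0.66 (Col16a1), 0.35 (Col6a3), -0.15 (Col4a1) and 0.03 (Col4a3), and did not pass. Without control replicate 1, Col5a1 was called as lower (-0.23, edgeR adjusted p = 0.00289). Of 18 folding and modification genes, 2 rose and 6 fell. The fallen included Plod2, P4ha1, P4ha2 and Plod3, hydroxylases of collagen, by 0.77, 0.39, 0.68 and 0.30. Pcolce fell by 0.67 and Bmp1, the procollagen C-proteinase, rose by 0.50.

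With IFN-γ in both arms, 7 of 15 collagens were called between sgUba1 and control cells, against 39.4% of genes, 17% higher and 22.4% lower. Col12a1 was at 4.48 and 4.13 TPM in control cells and 16.9 and 18 TPM in sgUba1 cells and rose by 2.05, and Col6a3 rose by 0.73. Col4a1 fell by 0.93, Col7a1 by 0.80, Col16a1 by 0.78, Col4a5 by 0.57 and Col5a1 by 0.56. The call of Col6a3 was lost without control replicate 1 (0.50) or sgUba1 replicate 1 (0.74), and that of Col16a1 without control replicate 2 (-0.61), sgUba1 replicate 1 (-0.80) or sgUba1 replicate 2 (-0.67), all with IFN-γ. Col4a3 and Col11a2 differed by 0.60 and -0.07 and did not pass. The effect of sgUba1 differed with IFN-γ for 3 of 15 collagens, against 4.64% of genes (0.663% higher and 3.97% lower), by -0.78 for Col4a1 (edgeR adjusted p = 0.035), -0.45 for Col5a1 (edgeR adjusted p = 0.0432) and -0.32 for Col12a1 (edgeR adjusted p = 0.0311). All 3 calls were lost when any 1 of the 6 libraries other than the unstimulated controls was left out, with differences of -0.86 to -0.60 for Col4a1, -0.47 to -0.33 for Col5a1 and -0.38 to -0.26 for Col12a1. Of the folding list, 1 gene rose and 9 fell with IFN-γ present.

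Few collagens were called for IFN-γ itself, and with 2 libraries a group few calls do not show that levels were unmoved. In control cells 1 of 15 was called, against 3.88% of genes, 3.03% higher and 0.856% lower. Col12a1 rose by 0.26 (edgeR adjusted p = 0.0304), and this call was lost without any 1 of the 6 libraries other than the unstimulated controls (0.20 to 0.31) and in DESeq2. In wild-type cells 0 of 19 collagens were called by edgeR, against 29% of genes (19.6% higher and 9.39% lower), with 2 at an unadjusted p under 0.05 (against 38% of genes) and 0 called by DESeq2 or limma-voom. Col5a1 was at 23.9 and 24.9 TPM without and 23.8 and 22.6 TPM with IFN-γ.

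TAK-243 in culture raised Col5a1, Col7a1, Col16a1 and Col11a2 and lowered Col4a5. Of 19 collagens tested, 13 were called, 10 higher and 3 lower, against 66.3% of 14551 genes, 32.3% higher and 34% lower. Among those called, Col9a3, Col6a2, Col18a1, Col27a1 and Col5a3 passed the count filter through libraries with TAK-243 alone and could hardly come out lower. Col11a1 passed it through libraries without TAK-243 alone and could hardly come out higher. Nothing is read from the split of directions. Col5a1 rose from 23.9 and 24.9 TPM to 45.4 and 40.6 TPM, by 1.12 ± 0.04 on the log2 scale (SE, edgeR adjusted p = 1.13e-20). Col7a1 rose from 0.874 and 1.11 TPM to 6.46 and 6.90 TPM, by 2.78 ± 0.13 (SE, edgeR adjusted p = 4.86e-18). Col16a1 rose from 1.41 and 0.797 TPM to 6.39 and 6.78 TPM, by 2.42, and Col11a2 from 1.73 and 1.81 TPM to 4.53 and 4.37 TPM, by 1.32. For Col5a1, Col7a1, Col16a1 and Col11a2 both treated libraries lay above both untreated ones. The share of all genes that did so is not given here, and nothing is read from it. Col4a5 fell from 16.3 and 16.9 TPM to 6.52 and 6.50 TPM, by 1.30 ± 0.07 (SE, edgeR adjusted p = 1.73e-16). Col12a1, the chain that rose with sgUba1, was at 4.55 and 4.01 TPM without and 4.50 and 3.95 TPM with TAK-243, a difference of -0.01 (edgeR adjusted p = 0.961). Col6a3, Col4a1 and Col4a3 differed by 0.28, -0.24 and 0.02 and did not pass. The sgUba1 and TAK-243 experiments were made apart, and the difference of their effects was not tested.

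The other called collagens were near the lower limit in culture. Col9a3 rose from 4 and 4 counts to 103 and 63 counts (log2 4.46), Col20a1 from 18 and 15 to 109 and 73 counts (log2 2.59), Col6a2 from 4 and 2 to 16 and 13 counts (log2 2.36) and Col18a1 from 3 and 5.10 to 13 and 13.1 counts (log2 1.81). Col27a1 and Col5a3 had 0 counts in both untreated libraries and 7 in each treated one, at least 2.48-fold higher with a floor of 3 counts per library. Col11a1 fell, from 13 and 14 counts to 3 and 3, and Col4a2 fell by 0.86 (edgeR adjusted p = 0.04). Single libraries decided several of these low calls. Without TAK-243 replicate 1 the calls of Col11a1 (-1.85) and Col4a2 (-0.46) were lost, without TAK-243 replicate 2 that of Col18a1 (1.58), without untreated replicate 1 those of Col18a1 (1.51) and Col4a2 (-0.64), and without untreated replicate 2 that of Col6a2 (1.94). The median over the 9 culture-expressed genes was 0.28, beside 0.03 over all genes. The mean that set this class took in the TAK-243 libraries, which lifted Col7a1 into it, so nothing is read from this median.

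The same comparison with IFN-γ in both arms, which used other libraries, called 13 of 19 collagens, 11 higher and 2 lower, against 68.2% of genes, 32% higher and 36.2% lower. The count filter set these directions in part here too, and nothing is read from their split. Col5a1 rose by 1.08, Col7a1 by 2.85, Col16a1 by 2.14, Col11a2 by 1.35, Col9a3 by 4.13, Col20a1 by 2.13, Col6a2 by 2.09, Col18a1 by 1.52 and Col1a1 by 1.28, while Col4a5 fell by 1.21 and Col11a1 by 1.97. Col27a1 and Col5a3 again had 0 counts without TAK-243 and were at least 4.13-fold and 3.63-fold higher with it. Without IFN-γ replicate 2 the calls of Col11a1 (-1.39), Col18a1 (1.15), Col1a1 (1.14) and Col6a2 (1.46) were lost, without the first library with both agents those of Col11a1 (-1.74), Col18a1 (0.88) and Col6a2 (1.83), and without the second that of Col1a1 (0.85). Col4a1, Col4a2, Col4a3, Col6a3 and Col12a1 differed by -0.49, -0.46, -0.42, 0.22 and 0.19 and did not pass. EdgeR called 0 collagens for a difference of the TAK-243 effect with IFN-γ, against 2.38% of genes (0.371% higher and 2.01% lower), with 0 at an unadjusted p under 0.05 (against 14.8% of genes), and DESeq2 and limma-voom called 0.

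**Figure D4:**
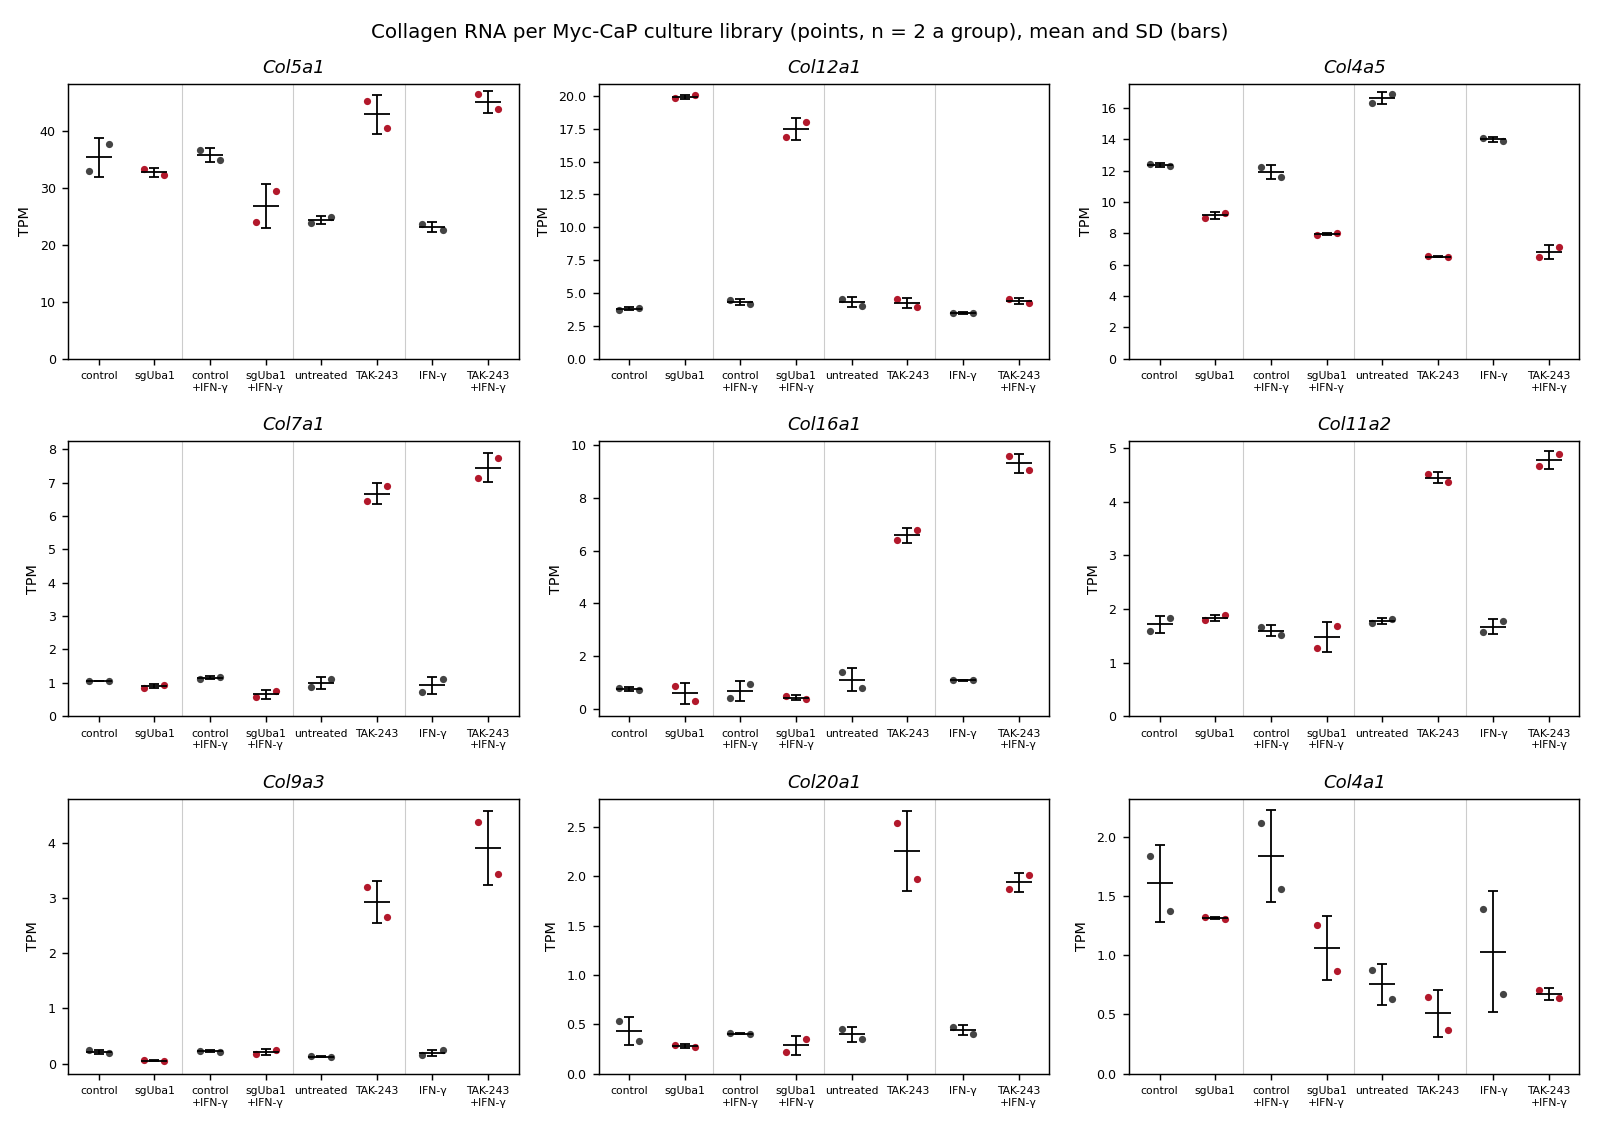
TPM per library of collagens in the 8 culture groups, with a point per library. Col12a1 is at 19.8 and 20.1 TPM in sgUba1 cells and at 3.70 and 3.89 TPM in control cells, whereas Col5a1 and Col7a1 are higher in the TAK-243 groups, and Col4a5 is lower in both the sgUba1 and the TAK-243 groups.

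With TAK-243 alone, genes of each pathway list passed in both directions, beside 32.3% of all genes higher and 34% lower, and nothing is read about the lists from their counts. Of 18 folding and modification genes, 5 rose and 6 fell, with P4ha2 up by 1.46 and Colgalt1, a collagen galactosyltransferase, down by 0.98. Of 9 receptors, 5 rose and 1 fell, with Cd44 up by 1.90, Itgb1 up by 0.59 and Ddr2 down by 1.76. Of 10 TGF-β ligands and targets, 5 rose and 4 fell, with Ccn2 down by 0.73. Of 9 genes of propeptide removal and cross-linking, 3 rose and 3 fell, with Loxl2 up by 0.48 and Loxl3 and Pcolce down by 1.97 and 0.91. Of 10 other matrix genes, 2 rose and 2 fell, with Lamb1 up by 2.66 and Fn1 and Vcan down by 0.74 and 1.55.

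**Figure D5:**
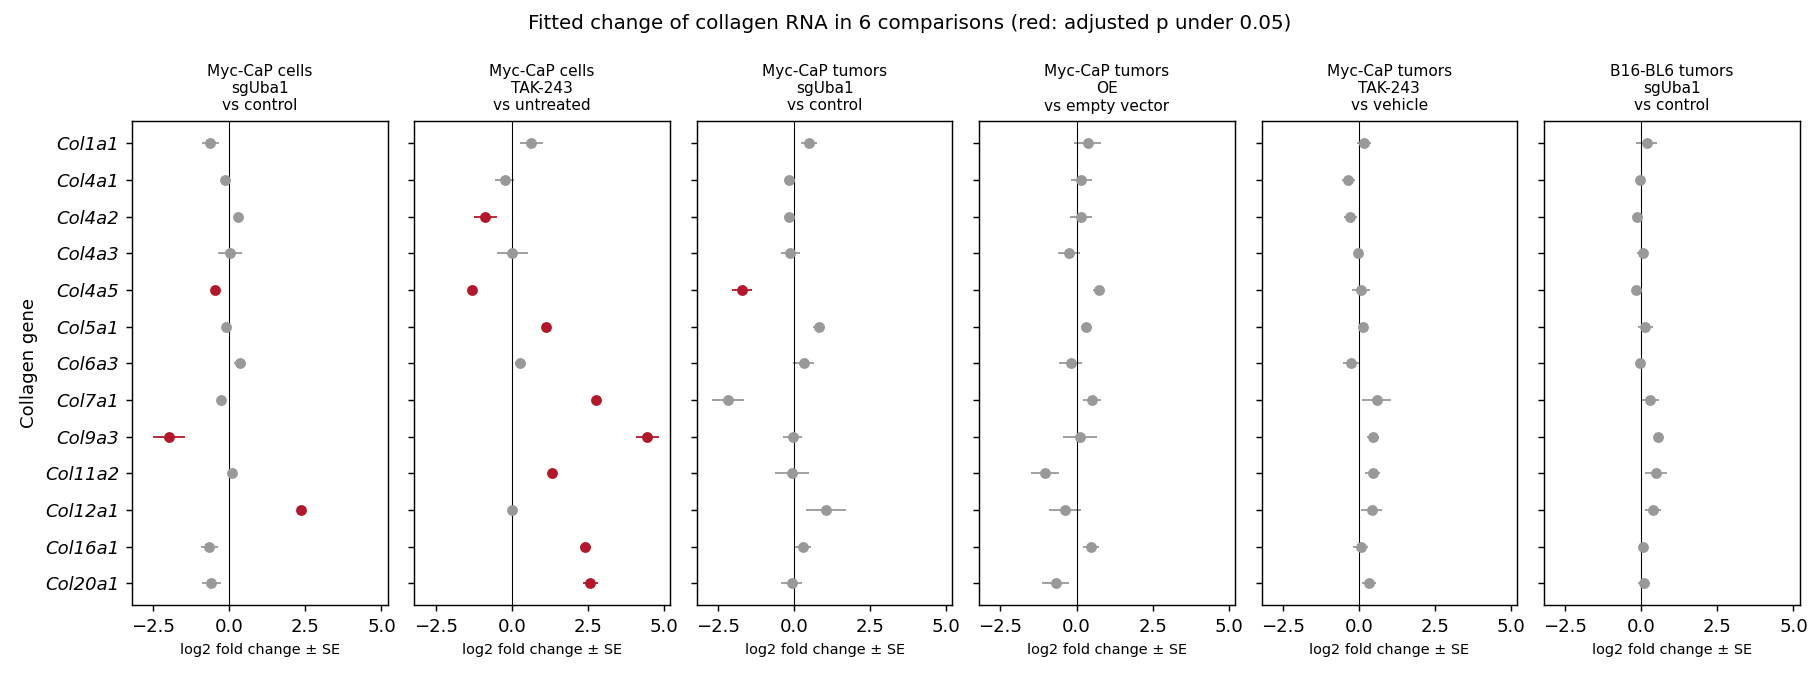
Fitted log2 fold change of 13 collagens, with its SE, in 6 comparisons, with red points for an adjusted p under 0.05. Of the genes plotted, Col4a5 is called in Myc-CaP sgUba1 tumors and 0 are called in the other tumor panels, whereas 3 are called in sgUba1 cells and 8 in TAK-243 cells.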

How the data were processed

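Bulk RNA-seq was measured in 35 tumors and 16 culture libraries. The authors deposited expected counts and TPM (transcript abundance scaled for length and library) per gene and library, and the submitters' processing notes name kallisto and mm10. The labels name poly-A RNA, but the library kit described in the methods removes rRNA by enzyme, and this was not settled here. The expected counts of the authors were rounded to whole numbers for the tests, and the deposited TPM were used for levels between genes. Estimated counts split reads among similar transcripts, so near-identical genes are uncertain. 

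Each experiment was fitted on its own in R 4.3.3 with the quasi-likelihood test of edgeR 4.0.16 (filterByExpr, TMM, 2-sided, Benjamini-Hochberg over all genes tested, threshold 0.05). The 8 libraries of each culture experiment shared 1 fit, and 17 sgUba1 and control tumors were fitted jointly for the interaction. Partner chain ratios were compared by exact permutation tests adjusted over 20. Levels and SDs are over libraries. Alternatives were DESeq2 1.42.0, limma-voom and log2(TPM + 1) or log2(TPM + 0.1) in limma 3.58.1, RLE factors, other count filters, Bonferroni adjustment, a replicate block, leaving out each library and leaving out the 4 Myc-CaP sgUba1 tumors with Uba1 near the controls. Scripts were tested on simulated counts.

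Named were the collagens with an adjusted p under 0.05, the main chains, the 3 largest increases and decreases at a mean log2 CPM of at least 1 in tumors, and collagens of at least 1 TPM in culture. The members, lists and comparisons were chosen with earlier results of these data known. Replicates were compared pairwise, and 0 of 75 pairs held identical values. Total counts were 8652097 to 35693203 in tumors and 12860987 to 38032395 in culture. Upstream sequences came from RefSeq (GRCm38.p6), in which 33 of 41 members had an entry. Certain genes are not reported here.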

Additional observations from a re-analysis of the deposited data

Results flagged for a closer look

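Of 92 groups of 4 to 10 libraries examined, 15 held a library whose gap to its nearest neighbour was past the 95% limit of Dixon's test, where chance gives about 1 in 20. Vehicle replicate 6 was the highest vehicle tumor for 4 connective tissue chains, with 124 TPM of Col1a1, 93.8 TPM of Col1a2, 14 TPM of Col6a1 and 13.7 TPM of Col6a2. TAK-243 replicate 4 was the highest of its group for Col7a1 (19.0 TPM), Col18a1 (10.6 TPM) and Col27a1 (1.39 TPM). B16-BL6 sgUba1 replicate 4 was the lowest of its group for Col1a1 (31.1 TPM), Col5a2 (7.01 TPM) and the summed collagens (521 TPM), and replicate 2 was the lowest for Col4a5 (8.27 TPM). OE replicate 1 was the lowest for Col3a1 (65.9 TPM) and Col27a1 (0.203 TPM). Myc-CaP sgUba1 replicate 3 was the highest for Col3a1 (379 TPM), and vehicle replicate 3 was the only Myc-CaP tumor with any Col9a1 (0.0146 TPM).

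The effect of sgUba1 in cultured cells differed with IFN-γ by a test of the interaction for Col4a1 (-0.78 on the log2 scale), Col5a1 (-0.45) and Col12a1 (-0.32). These calls were lost with Bonferroni adjustment, on both TPM scales and when most single libraries were left out.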

How the results depend on the processing

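The count of collagens called moved by over 1.5 times under these alternatives. Bonferroni adjustment gave 0 in B16-BL6 and Myc-CaP sgUba1 tumors, for IFN-γ in control cells and for the sgUba1 by IFN-γ difference, 1 in sgUba1 cells, 2 in sgUba1 cells with IFN-γ and 7 in TAK-243 cells without and with IFN-γ. At 10 counts in every library it was 3 in Myc-CaP sgUba1 tumors, 7 and 8 in TAK-243 cells without and with IFN-γ, and 0 for IFN-γ in control cells and the sgUba1 by IFN-γ difference. DESeq2 gave 3 in B16-BL6 and 10 in Myc-CaP sgUba1 tumors, 2 in OE tumors, 3 for the difference between lines and 0 for IFN-γ in control cells. Both TPM scales gave 0 in B16-BL6 and Myc-CaP sgUba1 tumors, for IFN-γ in control cells and for the sgUba1 by IFN-γ difference. With no filter the count was 2 in B16-BL6 tumors and 1 for IFN-γ in untreated cells. In Myc-CaP sgUba1 tumors RLE gave 2, limma-voom 0 and leaving out tumors 4 to 7 gave 0. Fitting only the groups compared gave 0 for IFN-γ in control cells. Leaving out 1 library gave 0 to 2 in B16-BL6 tumors, 0 to 4 in Myc-CaP sgUba1 tumors, 0 to 1 for the difference between lines, 0 to 2 for IFN-γ in control cells, 0 to 1 in untreated cells and 0 to 3 for the sgUba1 by IFN-γ difference. At 3 TPM the culture class held 3 genes in place of 9. The causes were not tested.

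The replicate block gave 0 calls in B16-BL6 and Myc-CaP sgUba1 tumors and 1 for IFN-γ in untreated cells. Tumors of the same number shared only that number, with correlations of their deviations of -0.049 to 0.164 in B16-BL6, -0.049 to -0.028 in Myc-CaP sgUba1, -0.021 to 0.086 in OE and -0.179 to 0.315 in TAK-243 tumors.

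Uncalled log2 differences and chain ratios changed sign as follows. With log2(TPM + 1) these were Col4a1 in B16-BL6 sgUba1 tumors 0.041, Col6a3 in B16-BL6 sgUba1 tumors 0.16, Col4a3 in TAK-243 cells -0.0040, Col4a1 in OE tumors -0.078, Col4a2 in OE tumors -0.070, Col6a3 in Myc-CaP sgUba1 tumors -0.16, Col15a1 in TAK-243 tumors -0.17, Col3a1 in TAK-243 tumors 0.012. With log2(TPM + 0.1) these were Col4a1 in B16-BL6 sgUba1 tumors 0.041, Col6a3 in B16-BL6 sgUba1 tumors 0.17, Col4a3 in TAK-243 cells -0.0037, Col4a1 in OE tumors -0.080, Col4a2 in OE tumors -0.075, Col6a3 in Myc-CaP sgUba1 tumors -0.17, Col15a1 in TAK-243 tumors -0.21, Col3a1 in TAK-243 tumors 0.012. With RLE factors these were Col12a1 in TAK-243 cells 0.0034. With limma-voom these were Col12a1 in TAK-243 cells 0.00065, Col4a2 in OE tumors -0.0058, Col15a1 in TAK-243 tumors -0.31. With the replicate block these were Col1a2 in OE tumors -0.090, Col4a1 in OE tumors -0.068, Col4a2 in OE tumors -0.10, Col18a1 in Myc-CaP sgUba1 tumors 0.15, Col15a1 in TAK-243 tumors -0.25, Col3a1 in TAK-243 tumors 0.066. Without Myc-CaP sgUba1 tumors 4 to 7 these were Col18a1 in Myc-CaP sgUba1 tumors 0.14. With CPM in place of TPM these were Col4a1 to Col4a2 in Myc-CaP sgUba1 tumors -0.026, Col4a1 to Col4a2 in OE tumors 0.035.

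The ranges that crossed 0 when 1 library was left out were these. In B16-BL6 sgUba1 tumors these were Col1a1 -0.084 to 0.70, Col1a2 -0.091 to 0.49, Col3a1 -0.13 to 0.79, Col4a1 -0.10 to 0.0099, Col5a1 -0.013 to 0.47, Col5a2 -0.023 to 0.59, Col6a1 -0.22 to 0.076, Col6a2 -0.25 to 0.040, Col6a3 -0.16 to 0.16, Col6a1 to Col6a2 -0.0058 to 0.072 and Col3a1 to Col1a1 -0.033 to 0.19. In sgUba1 cells these were Col11a2 -0.019 to 0.19, Col4a3 -0.28 to 0.26 and Col5a1 -0.23 to 0.032. In sgUba1 cells with IFN-γ these were Col11a2 -0.15 to 0.11. In TAK-243 cells these were Col12a1 -0.16 to 0.090, Col4a1 -0.59 to 0.22 and Col4a3 -0.15 to 0.20. In TAK-243 cells with IFN-γ these were Col4a3 -0.86 to 0.26. In OE tumors these were Col18a1 -0.0022 to 0.50, Col1a2 -0.00098 to 0.53, Col4a1 -0.21 to 0.39, Col4a2 -0.26 to 0.37, Col5a2 -0.37 to 0.18, Col6a1 -0.38 to 0.053, Col6a2 -0.34 to 0.057, Col6a3 -0.49 to 0.073, Col3a1 to Col1a1 -0.049 to 0.38, Col4a1 to Col4a2 -0.081 to 0.078 and Col6a1 to Col6a2 -0.037 to 0.024. In Myc-CaP sgUba1 tumors these were Col18a1 -0.12 to 0.075, Col1a1 to Col1a2 -0.055 to 0.046 and Col6a1 to Col6a2 -0.10 to 0.16. In TAK-243 tumors these were Col15a1 -0.46 to 0.24, Col3a1 -0.24 to 0.085, Col6a2 -0.027 to 0.29, Col7a1 -0.062 to 0.89 and Col5a1 to Col5a2 -0.23 to 0.043. Over the gene values without 1 library, 969 kept direction and call, 55 lost the call, 6 gained it and 49 changed sign.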

Other observations

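Col17a1, the transmembrane collagen of hemidesmosomes, had 204 counts in TAK-243 tumor replicate 1 and at most 6 counts in any other tumor of that experiment. Keratinocyte markers summed to 137 TPM in the same tumor, to at most 0.947 TPM in the other TAK-243 tumors and to at most 1.35 TPM in the vehicle tumors.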
